A study of Mus musculus with 7 samples.

Results

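The expression of 10 genes of the bone morphogenetic protein (BMP) pathway was followed in oligodendroglial cells with and without the transcription factor KLF13. These were the ligands Bmp2, Bmp4 and Bmp7, the receptors Bmpr1a, Bmpr1b and Bmpr2, the inhibitory effectors Smad6 and Smad7 and the secreted antagonists Nog and Chrdl1, taken by name out of 49315 genes in the count tables. The RNA of 7 primary mouse cultures was sequenced, 4 of them from wildtype controls (Klf13-wt) and 3 from Klf13 knockouts (Klf13-ko). The cells came from the brains of newborn pups of both sexes. Oligodendrocyte precursors were shaken off mixed glial cultures, depleted of microglia and differentiated for 6 days in SATO medium with thyroid hormone, in both groups alike. The deletion of Klf13 was constitutive and affected all tissues of the knockout mice, not a single cell type. The mouse strain, and whether a culture came from 1 pup or several, are not given in the sources used here.

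BMPs are secreted ligands that bind pairs of type I and type II receptor kinases on the cell surface. The receptors phosphorylate the SMAD1, SMAD5 and SMAD9 proteins, which enter the nucleus with SMAD4 and activate targets such as the Id genes. The pathway is held in check outside the cell by antagonists that trap the ligands and inside the cell by the inhibitory proteins SMAD6 and SMAD7. In the oligodendrocyte lineage, BMP signalling is known to hold back differentiation and to favour astrocytic fate, and SMAD7 is known to promote differentiation.

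Libraries held 24507471 to 59596479 counts on genes. Unless stated otherwise, values are normalized counts, i.e. counts scaled to a common effective library size by the TMM method. Klf13 itself was at 10670 to 12000 in wildtype cultures and at 802 to 961, or 7.76% of the control mean, in knockouts. All 8 oligodendrocyte markers on the list used, Mbp among them, were present in every library and lower in the knockouts, with a summed level of 23021 to 27175 CPM (counts per library scaled by edgeR to a common total) in the controls and 6374 to 7189 in the knockouts. The cultures also held RNA of other cells. Summed astrocyte markers were at 2981 to 3460 CPM in the controls and 4628 to 5286 in the knockouts, and 6 of 8 were higher. The others were Gjb6 and S100b, with log2 fold changes of 0.98 and -0.54 (adjusted p = 0.290 and 0.0923 in edgeR's test). For S100b all knockouts were below all controls. Summed neuron markers were at 162 to 367 and 848 to 1123, and all 8 were higher. Fibroblast and mural cell markers were at 528, 409, 1752 and 1404 CPM in control replicates 1 to 4 and at 182 to 426 in the knockouts, with 1 of 8 markers passing as lower, so that control replicates 3 and 4 stood apart. Microglia markers were at 261 to 288 in control replicates 1, 2 and 4, at 1244 in control replicate 3 and at 227 to 513 in the knockouts. Endothelial markers were at 6.16 to 22.9 and 5.18 to 8.35, and markers of precursors at 3081 to 3302 and 3894 to 3928 CPM. None of the markers of any list was at 0 in all libraries, but the endothelial marker Cldn5 had only 1 raw count, in knockout replicate 2. Cldn5 and Tek, another endothelial marker, had too few counts to be tested.

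**Figure D1:**
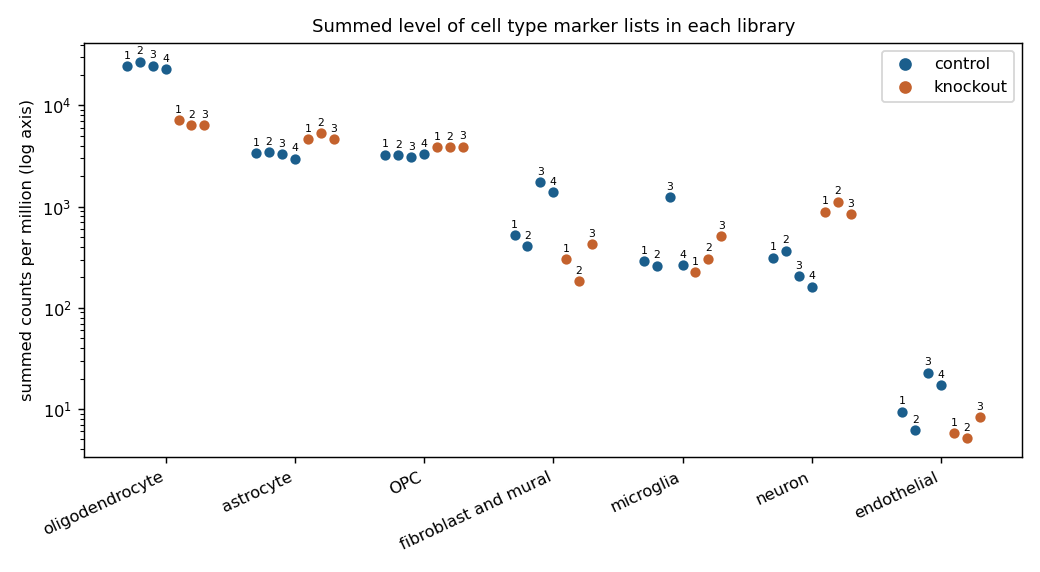
Summed CPM (log axis) of marker gene lists of 7 cell types in each library, with controls in blue, Klf13 knockouts in orange and replicate numbers above the points. Oligodendrocyte markers were lower and neuron markers higher in all 3 knockout libraries, and fibroblast and mural cell markers were highest in control replicates 3 and 4.

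Of the 10 BMP genes, 6 differed between the groups (adjusted p up to 0.05, quasi-likelihood test of edgeR). Smad7, Bmp2 and Bmp7 were lower in the Klf13 knockouts, and Bmp4, Bmpr1a and Bmpr1b were higher. Among all 18352 genes tested, 12.2% were lower and 11.6% were higher, 23.8% in either direction. Smad7 and Bmp2, but none of the higher members, also reached the fold threshold of the study, a log2 change of 1 or more in size, as did 7.05% of all genes tested, 3.08% downwards and 3.97% upwards. Groups were fully separated for 7 of the 10 genes, and for 36.2% of all genes. The median log2 fold change of the 10 genes was 0.09, against -0.0037 for all genes, whereas the median of the absolute values was 0.53, against 0.26. These RNA levels are of whole cultures, in which fewer cells of a type and less RNA per cell cannot be told apart.

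The call for Smad7 held in all 16 alternative settings, and those of the other 5 genes depended in part on single libraries. Without knockout replicate 2, the largest library, 2 genes were lower and 0 higher in the same test of edgeR, with 3 lower and 4 higher at an unadjusted p of 0.05. Without knockout replicate 3, only Smad7 remained among the lower genes, and without knockout replicate 1 only Bmp4 among the higher genes. Without control replicates 3 and 4 together, 1 gene was lower, Smad7, and Bmp4 and Bmpr1b were higher. With the replicate number as a block, 2 were lower (Smad7 and Bmp2) and 2 higher (Bmp4 and Bmpr1b).

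**Figure D2:**
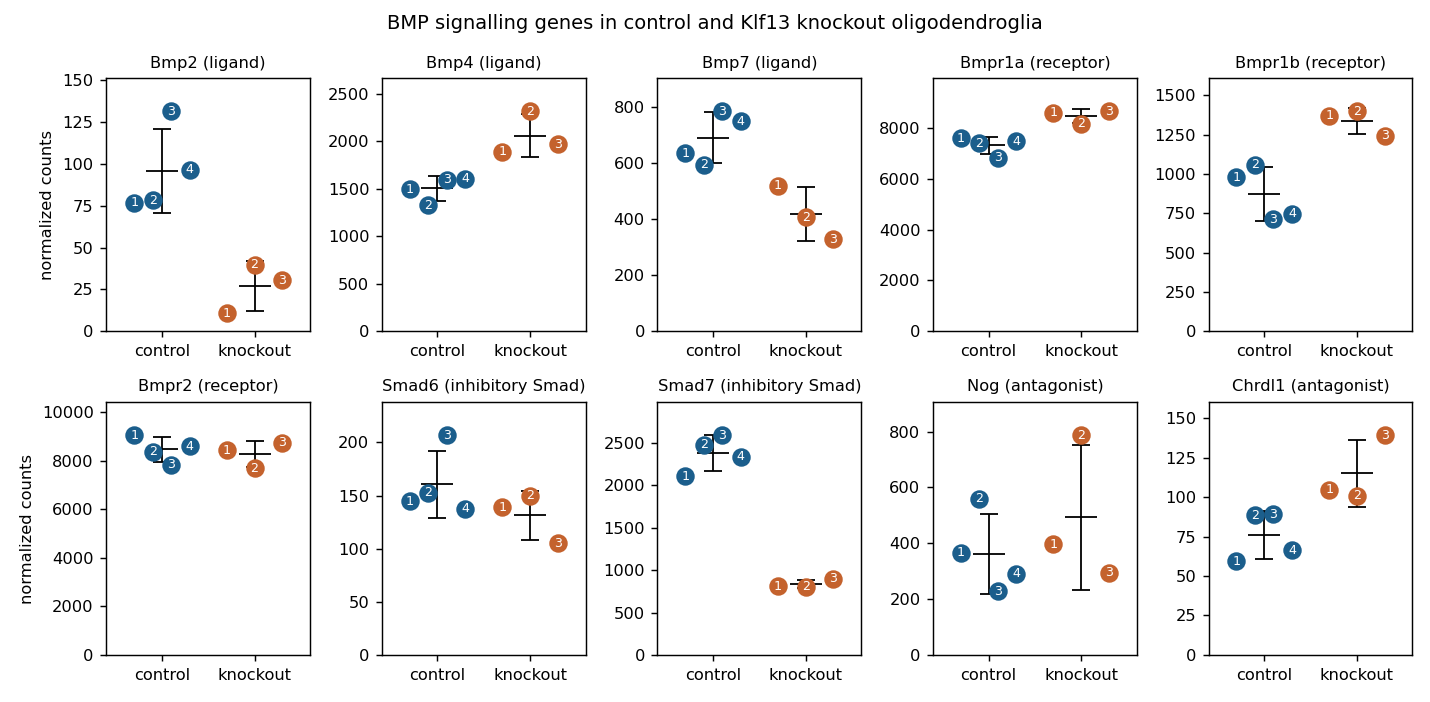
Normalized counts of the 10 BMP signalling genes in each library, with the replicate number inside the point, controls in blue, Klf13 knockouts in orange, and the mean and SD of each group in black (n = 4 and 3). For Smad7 the groups lie far apart, with 2106 to 2594 in the controls and 805 to 896 in the knockouts, while Nog and Smad6 overlap between the groups.

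The ligands Bmp2 and Bmp4 are close relatives, yet their transcripts went in opposite directions. Bmp2, which lies at 133552159 to 133562885 of chromosome 2 (GRCm38, as all positions here), was counted 77.0, 78.4, 131 and 96.4 times in control replicates 1 to 4 after normalization, and 10.8, 39.9 and 30.5 times in knockout replicates 1 to 3. All knockouts were below all controls, and control replicate 3 was the highest. The raw counts behind these values were low, 57 to 115 in wildtype cultures and 6, 58 and 40 in knockout replicates 1 to 3. Bmp2 thus fell from 95.8 ± 25.3 (SD, n = 4 libraries) to 27.1 ± 14.8 (SD, n = 3), or by 1.75 on the log2 scale (SE 0.40, adjusted p = 0.0194, edgeR). The 95% interval of this change was wide, -2.67 to -0.82, and the adjusted p in edgeR was 0.0575 without knockout replicate 3 and 0.0895 without control replicates 3 and 4, where the log2 fold change was -1.43.

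Bmp7, a ligand of another branch of the family that is also made by meningeal and other mesenchymal cells, lies on chromosome 2 from 172868012 to 172940321. It had normalized counts of 635, 593, 784 and 749 in wildtype and of 518, 407 and 328 in knockout cultures. The groups did not overlap, but the lowest control and the highest knockout library were close to each other. The mean fell from 690 ± 90.8 to 418 ± 95.4, with a log2 change of -0.73 (SE 0.18, adjusted p = 0.0234, edgeR). The adjusted p was 0.0584, 0.0814 and 0.0679 without control replicate 4, knockout replicate 2 and knockout replicate 3. With the replicate number as a block the log2 fold change of Bmp7 was -0.70 and the adjusted p 0.0649. Among the controls, Bmp2, Bmp7 and also Bmp4 were highest in control replicates 3 and 4, the libraries with 1752 and 1404 CPM of fibroblast and mural cell markers. Without these 2 libraries, the log2 fold change of Bmp7 was -0.57 (adjusted p = 0.115 in edgeR's test). The part of fibroblast and mural cell RNA in these results was not tested.

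Bmp4, the most abundant of the 3 ligands and known to be made by cells of the oligodendrocyte lineage themselves, lies on chromosome 14 from 46383520 to 46390669. The controls had 1495, 1325, 1593 and 1607 normalized counts and the knockouts 1892, 2316 and 1970. All knockouts were above all controls, with knockout replicate 2 the highest. The mean rose from 1505 ± 130 to 2059 ± 226, with a log2 change of 0.45 (SE 0.098, adjusted p = 0.0162, edgeR). Without knockout replicate 2 it was 0.36 with an adjusted p of 0.0549. When these 3 ligands were summed by their level per length, the share of Bmp4 was 77.4% ± 1.42 in the controls and 89.2% ± 2.28 in the knockouts, that of Bmp7 was 19.6% ± 0.866 and 10.1% ± 2.63, and that of Bmp2 was 3.05% ± 0.586 and 0.720% ± 0.358 (SD, n = 4 and 3). In each library Bmp4 thus made up more than the other 2 together. Bmp4 shares 89 bases, 4.00% of its exon length, with Gm15217 on the opposite strand, a gene with 9 to 41 counts per library.

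Among the receptors, both type I receptors were higher and the type II receptor Bmpr2 did not pass. Bmpr1b, a type I receptor on chromosome 3 from 141837136 to 142169425, had normalized counts of 980, 1060, 711 and 747 in wildtype and of 1370, 1397 and 1244 in knockout cultures. The groups did not overlap, and here control replicates 3 and 4 were the lowest. The mean rose from 875 ± 172 to 1337 ± 82.1, with a log2 change of 0.61 (SE 0.15, adjusted p = 0.0251, edgeR). Without control replicates 3 and 4 its log2 fold change was lower, 0.39, but still past the threshold (adjusted p = 0.0394), whereas the adjusted p was 0.0653 and 0.0855 in edgeR without knockout replicates 1 and 2. Summed astrocyte and neuron markers were higher in the same libraries as Bmpr1b, and their part in this result was not tested.

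Bmpr1a, the more widely expressed type I receptor, lies on chromosome 14 from 34410734 to 34503341. It had normalized counts of 7594, 7383, 6828 and 7463 in wildtype and of 8594, 8156 and 8645 in knockout cultures. All knockouts were above all controls, but by a small margin, with means of 7317 ± 337 and 8465 ± 269 and with a log2 change of 0.21 (SE 0.056, adjusted p = 0.0331, edgeR). The call for Bmpr1a was lost in 8 of 16 alternative settings, among them the replicate block (log2 fold change 0.22, adjusted p = 0.0698, edgeR) and the fits without control replicate 2, control replicate 3 or any 1 of the knockout replicates (adjusted p from 0.0516 to 0.102). Exons of Bmpr1a share 290 bases with Gm17110 on the opposite strand, 4.57% of its exon length.

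Bmpr2, the type II receptor with which both type I receptors pair, lies on chromosome 1 from 59763400 to 59879014. It was at 9067, 8371, 7845 and 8611 normalized counts in wildtype cultures, compared with 8440, 7707 and 8752 without KLF13. The groups overlapped almost fully. The log2 fold change was -0.03 with a 95% interval from -0.19 to 0.13 (adjusted p = 0.799 in edgeR's test), and its sign turned, to 0.01, when libraries were scaled by their total counts alone.

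For the 3 members that were higher, the RefSeq promoter windows of GRCm38.p6, which run from 250 bases before to 50 bases after an annotated start, are printed from 5′ to 3′ on the strand of the gene. Capitals mark each CACCC and GGGCGG on either strand, the short GC-rich sequences that Klf and Sp factors are known to prefer, and each GGCGCC, a sequence found in BMP-responsive elements. The windows are chr14:46390620-46390919 for Bmp4, chr14:34502497-34502796 for Bmpr1a and chr3:141982215-141982514 for Bmpr1b, all on the minus strand.
Bmp4: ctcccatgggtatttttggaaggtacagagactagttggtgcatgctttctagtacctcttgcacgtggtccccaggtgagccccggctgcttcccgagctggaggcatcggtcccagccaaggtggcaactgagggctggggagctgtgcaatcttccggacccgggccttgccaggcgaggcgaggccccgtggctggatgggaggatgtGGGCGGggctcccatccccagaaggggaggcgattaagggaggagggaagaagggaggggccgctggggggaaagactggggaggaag
Bmpr1a: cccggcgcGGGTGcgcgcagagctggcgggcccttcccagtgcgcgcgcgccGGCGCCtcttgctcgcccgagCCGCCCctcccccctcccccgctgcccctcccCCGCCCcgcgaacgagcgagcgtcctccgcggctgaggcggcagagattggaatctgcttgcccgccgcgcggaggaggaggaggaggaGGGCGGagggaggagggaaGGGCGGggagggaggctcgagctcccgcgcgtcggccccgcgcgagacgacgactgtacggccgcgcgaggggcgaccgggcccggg
Bmpr1b: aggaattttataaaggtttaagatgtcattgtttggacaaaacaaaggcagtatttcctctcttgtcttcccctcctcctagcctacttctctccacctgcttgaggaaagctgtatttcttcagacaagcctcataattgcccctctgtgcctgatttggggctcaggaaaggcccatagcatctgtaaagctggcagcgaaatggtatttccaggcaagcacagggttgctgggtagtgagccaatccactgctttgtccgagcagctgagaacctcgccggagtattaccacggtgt

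The 3 windows differ widely. That of Bmpr1a has a GC content of 79.3% and holds 4 GGGCGG, 1 CACCC and 1 GGCGCC, that of Bmp4 has a GC content of 64.0% and holds 1 GGGCGG, and that of Bmpr1b has a GC content of 48.3% and holds no match to any of these letters. Another Bmpr1b window, chr3:141931539-141931838, holds 2 CACCC, and the third holds no match. Over all 32851 windows of the same length, the median GC content was 52.7%, and 57.5% held CACCC, 35.7% GGGCGG and 11.9% GGCGCC. The start used for Bmp4 is the start of the gene in the count files, that of Bmpr1a lies 795 bases inside it and that of Bmpr1b 187161 bases inside. Windows were examined for 5 of the 10 members, those of Bmpr2 and Smad6 being the others. Windows on chromosome 18, where Smad7 lies, were left out. Bmpr1b had 3 windows, of which the most upstream is shown. The window of Smad6 holds 4 GGGCGG and 1 CACCC, and that of Bmpr2 holds 1 GGGCGG and 1 GGCGCC, and neither gene passed the test.

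Of the inhibitory Smads, Smad7 was lower and Smad6 did not pass. Smad7, which blocks the receptors and recruits ubiquitin ligases to them, lies on chromosome 18 from 75367529 to 75395935. Wildtype cultures gave 2106, 2481, 2594 and 2337 normalized counts, and knockout cultures gave 809, 805 and 896. Even the lowest control library was far above the highest knockout library. Smad7 fell from 2379 ± 210 (SD, n = 4 libraries) to 837 ± 51.7 (SD, n = 3), i.e. to 35.2% of the control mean or by 1.51 on the log2 scale (SE 0.089, 95% interval -1.72 to -1.30, adjusted p = 8.20e-05, edgeR). By its p it ranked 67 among the 18352 genes tested. Leaving out single libraries gave values between -1.55 and -1.46, and the largest adjusted p in all 16 alternatives was 0.00123. The summed oligodendrocyte markers moved with Smad7, to 0.27 of the control mean, and the part of this in the result was not tested.

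Smad6, the other inhibitory Smad, which acts mainly on the BMP branch, lies on chromosome 9 from 63953076 to 64022059. It had normalized counts of 144, 153, 207 and 138 in wildtype and of 139, 150 and 105 in knockout cultures. The groups overlapped, with control replicate 3 the highest and knockout replicate 3 the lowest, and the log2 fold change of -0.29 had a 95% interval from -0.76 to 0.18 (adjusted p = 0.354 in edgeR's test), and without knockout replicate 3 it was -0.14. On the per-length scale, Smad7 made up 91.3% ± 1.09 of the summed level of both inhibitory Smads in the controls and 81.8% ± 3.50 in the knockouts (SD, n = 4 and 3).

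Neither antagonist passed the test. Nog, which encodes the ligand trap noggin and lies on chromosome 11 from 89300638 to 89302332, had normalized counts of 366, 559, 227 and 290 in wildtype and of 397, 788 and 294 in knockout cultures. The groups overlapped, and replicate 2 was the highest library in either group. Within each of the 3 pairs of the same replicate number, Nog was higher in the knockout, with a log2 fold change of 0.33 in the fit with the replicate block (adjusted p = 0.112 in edgeR's test). The log2 fold change of 0.45 had a wide 95% interval from -0.50 to 1.40 (adjusted p = 0.476 in edgeR's test), and without knockout replicate 2 it was -0.07. Chrdl1, a chordin-like antagonist best known for its binding of BMP4 and located on chromosome X from 143285674 to 143394262, had normalized counts of 59.4, 88.5, 89.2 and 66.5 in wildtype and of 105, 101 and 139 in knockout cultures. The knockouts were all above the controls, but the difference missed the threshold with a log2 fold change of 0.60 (95% interval 0.10 to 1.10, unadjusted p = 0.0248, adjusted p = 0.0828 in edgeR's test).

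**Figure D3:**
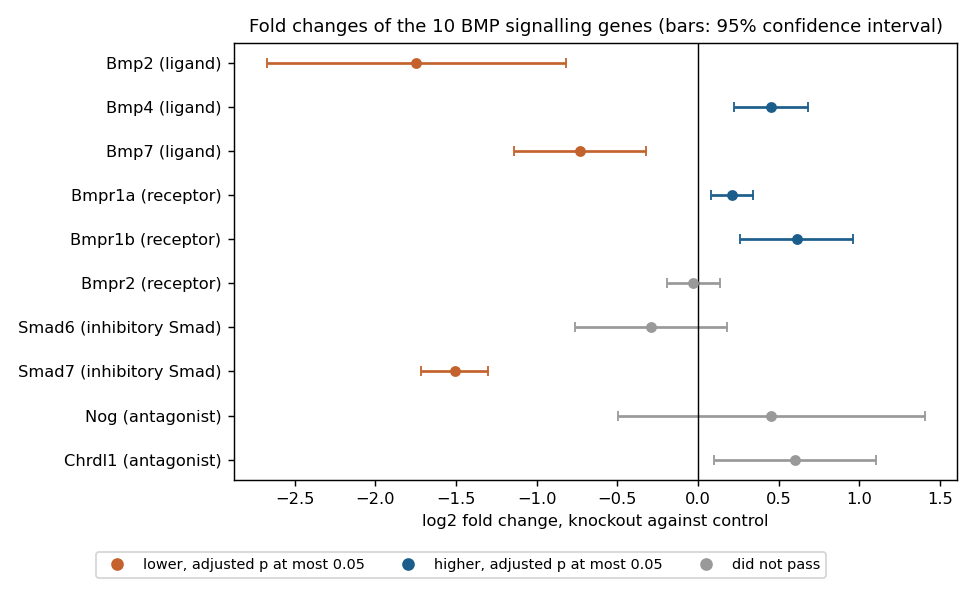
Log2 fold changes of the 10 BMP signalling genes in the Klf13 knockouts against the controls, with 95% intervals of the edgeR fit, in orange for genes that were lower, blue for genes that were higher and grey for those that did not pass. The interval of Smad7, from -1.72 to -1.30, lies far from 0, and those of Nog, Smad6 and Bmpr2 include it.

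Levels of different genes were compared as CPM per kilobase of exon. In the controls, Bmpr1a had the highest level (26.2 ± 1.21, SD, n = 4 libraries), followed by Bmp4 (15.4 ± 1.33), Smad7 (11.98 ± 1.06) and Bmpr2 (10.7 ± 0.644). Nog, Bmp7 and Bmpr1b were at 4.84 ± 1.93, 3.91 ± 0.514 and 3.34 ± 0.656, and Smad6, Bmp2 and Chrdl1 were at 1.14 ± 0.224, 0.613 ± 0.162 and 0.255 ± 0.0513. The libraries of Smad7 and Bmpr2 overlapped, and so did those of Nog and Bmp7 and of Bmp7 and Bmpr1b, whereas other neighbours in this order did not. In the knockouts, Smad7 was sixth at 4.21 ± 0.260 (SD, n = 3), after Nog and Bmpr1b at 6.62 ± 3.50 and 5.10 ± 0.313, and Bmp2 was last at 0.173 ± 0.0948. Here Bmpr2 and Nog overlapped, and Nog, at 3.95 to 10.6, also overlapped Bmpr1b and Smad7. Type I receptor level was mostly Bmpr1a in both groups. Of the summed level of the 3 receptors, Bmpr1a held 65.1% ± 1.01 in the controls and 66.0% ± 0.144 in the knockouts, and Bmpr1b held 8.25% ± 1.32 and 11.1% ± 0.949.

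**Figure D4:**
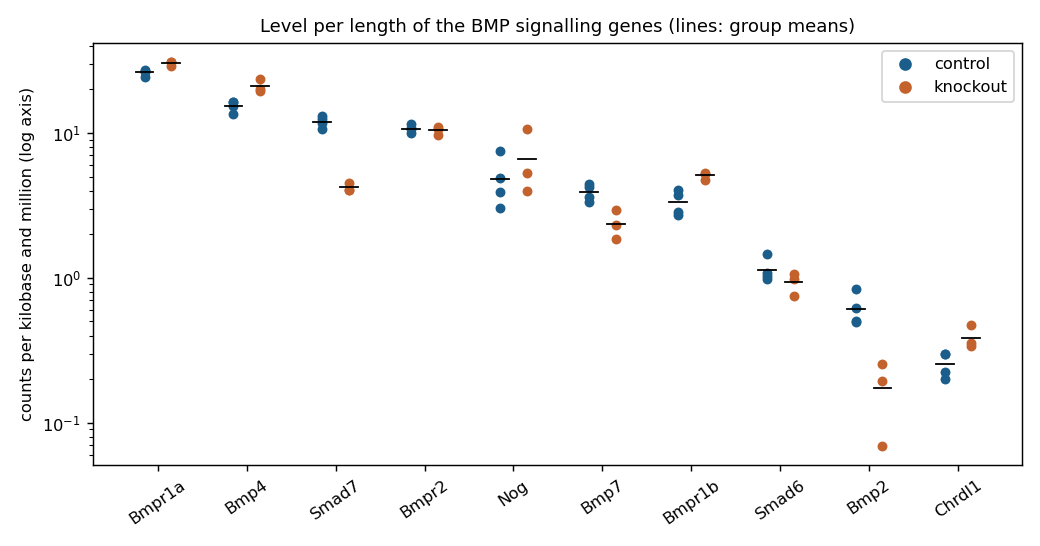
Level per length of the 10 BMP signalling genes in CPM per kilobase of exon on a log axis, ordered by the control mean, with 1 point per library, controls in blue, Klf13 knockouts in orange and lines at the group means. Bmpr1a and Bmp4 lead in both groups, and Bmp2 and Chrdl1 are the lowest.

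The rest of the BMP pathway was followed in 59 further genes, of which 49 had enough counts to be tested. Of these, 5 were lower and 9 higher in the Klf13 knockouts at an adjusted p of 0.05 in edgeR's test, together 28.6%, close to the 23.8% of all genes. The median log2 fold change was 0.0018. The 10 genes that were not tested, 7 ligands among them, had at most 25 counts in any library.

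Among further receptors and co-receptors, 4 of the 9 tested passed, and all 4 were higher. This was 44.4% of them, against 23.8% of all genes tested in either direction. The log2 fold changes of the 9 ran from -0.81 to 0.88. Summed astrocyte and neuron markers were higher in the same knockout libraries, and their part in these results was not tested. Rgmb, a membrane-anchored BMP co-receptor, had normalized counts of 944, 1046, 1030 and 932 in wildtype and of 1672, 2145 and 1621 in knockout cultures, without overlap. Its log2 fold change of 0.88 (adjusted p = 0.00224 in edgeR's test) was the largest in this group of receptors. The related co-receptor Rgma rose by 0.66 log2 units, from 4247 ± 710 to 6711 ± 951, the type I receptor Acvr1 by 0.41, and Bambi, a pseudoreceptor without kinase domain that is itself induced by BMP, by 0.67 (adjusted p = 0.0176, 0.0244 and 0.0343 in edgeR's test). Neo1, a receptor for the Rgm proteins and the receptor gene with the highest level per length, had a log2 fold change of -0.25 (adjusted p = 0.0566 in edgeR's test). It passed as lower in 5 of 16 alternatives, among them DESeq2 (adjusted p = 0.0302) and the fit without control replicate 3 (-0.31, adjusted p = 0.00943 in edgeR's test). The call for Rgmb held in all 16, whereas that for Rgma was lost without knockout replicate 2 and without control replicates 3 and 4 together, that for Acvr1 without control replicate 1 or 4 or knockout replicate 2 or 3, and that for Bambi without any 1 library other than control replicate 3.

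Of 10 transducers inside the cell, 2 passed. Smurf1, a ubiquitin ligase that is brought to receptors by SMAD7, had normalized counts of 6365, 6852, 7635 and 6943 in wildtype and of 4831, 4821 and 4884 in knockout cultures, all below the controls. The log2 fold change was -0.52 (SE 0.068, adjusted p = 0.00264 in edgeR's test). Smad4, the shared partner of the receptor-activated Smads, rose by 0.15 log2 units at an adjusted p of 0.0465 in edgeR's test, which was lost in 13 of 16 alternative settings. The other 8 did not pass, among them Smad1, Smad5 and Smad9, the Smads activated by BMP receptors, with log2 fold changes of 0.21, 0.07 and 0.19. Smad1 passed as higher without control replicate 4 (0.27, adjusted p = 0.0368 in edgeR's test). Skil, also among the 8, had a log2 fold change of -0.56 (adjusted p = 0.0906 in edgeR's test). It passed as lower with DESeq2, with the replicate block and without control replicate 2. Ski, a repressor of Smad activity, had a log2 fold change of 0.10 (95% interval -0.18 to 0.39).

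Of 8 genes known as direct BMP targets, Id3 and Hey1 were higher and Msx2 was lower. Msx2, a homeobox gene, had normalized counts of 228, 264, 193 and 204 in wildtype and of 63.2, 54.3 and 67.8 in knockout cultures, without overlap, and its log2 fold change was -1.85 (SE 0.17, adjusted p = 0.000581 in edgeR's test). Id3, an inhibitor of basic helix-loop-helix factors, rose from 5940 ± 881 to 8783 ± 735, a log2 fold change of 0.56 (adjusted p = 0.0167 in edgeR's test), and Hey1 rose by 0.24. The call for Id3 was lost without knockout replicate 2, and that for Hey1 in 5 alternatives, among them the fits without control replicate 2, knockout replicate 2 or knockout replicate 3. Of related genes, Id1 and Id2 had log2 fold changes of -0.04, which turned to 0.01 with total counts and to 0.03 with the replicate block, and 0.11, with 95% intervals from -0.38 to 0.31 and from -0.09 to 0.30. Id4 ranged from 765 to 1842 in wildtype and from 1696 to 3589 in knockout cultures, with a log2 fold change of 1.00 and an adjusted p of 0.0880 in edgeR's test. With the replicate block Id4 passed as higher (0.81, adjusted p = 0.00364 in edgeR's test), as it did in 3 further settings of the 16, DESeq2 among them. Id4 was higher in the knockout of each of the 3 pairs of the same replicate number. Without knockout replicate 2 it was at 0.56 (adjusted p = 0.307 in edgeR's test).

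Of 6 proteases that process BMPs or their antagonists, Bmp1 and Tll2, both of the tolloid family that cleaves the antagonist chordin, were lower, with log2 fold changes of -0.56 and -1.84 (adjusted p = 0.00885 and 0.00801 in edgeR's test). Bmp1 fell from 4718 ± 570 to 3192 ± 222 and Tll2 from 30.3 ± 6.30 to 8.01 ± 2.81 normalized counts. Tll2 did not pass without control replicates 3 and 4 together (adjusted p = 0.0513 in edgeR's test) and could not be tested with at least 10 counts in every library. Pcsk6, a proprotein convertase, had a log2 fold change of -0.28 (adjusted p = 0.0684 in edgeR's test) and passed as lower with DESeq2 (adjusted p = 0.0393). Of the 13 further antagonists tested, 1 was lower and 1, Sostdc1, was higher, at low counts. Sostdc1 rose from 6.93 ± 2.64 to 20.5 ± 4.08 (adjusted p = 0.0222 in edgeR's test), but did not pass with the replicate block (1.40, adjusted p = 0.108), without control replicate 4, without knockout replicate 1 or 3, or without control replicates 3 and 4 together. The antagonists with the highest levels per length, Fstl1 and Twsg1, had log2 fold changes of -0.05 and -0.04, which turned to 0.07 and 0.04 with the replicate block. Among ligands, Bmp3 rose from 7.61 ± 3.92 to 23.8 ± 4.92 (adjusted p = 0.0270 in edgeR's test), but did not pass with the replicate block (1.41, adjusted p = 0.0573), without control replicate 1 or 3, without knockout replicate 1 or 2, or without control replicates 3 and 4 together. Bmp6 and Bmp8b had log2 fold changes of 0.52 and 0.18 (adjusted p = 0.133 and 0.778 in edgeR's test). Bmp6 passed as higher without control replicate 2 and with a term for the ribosomal RNA share (adjusted p = 0.0284 and 0.0356 in edgeR's test).

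**Figure D5:**
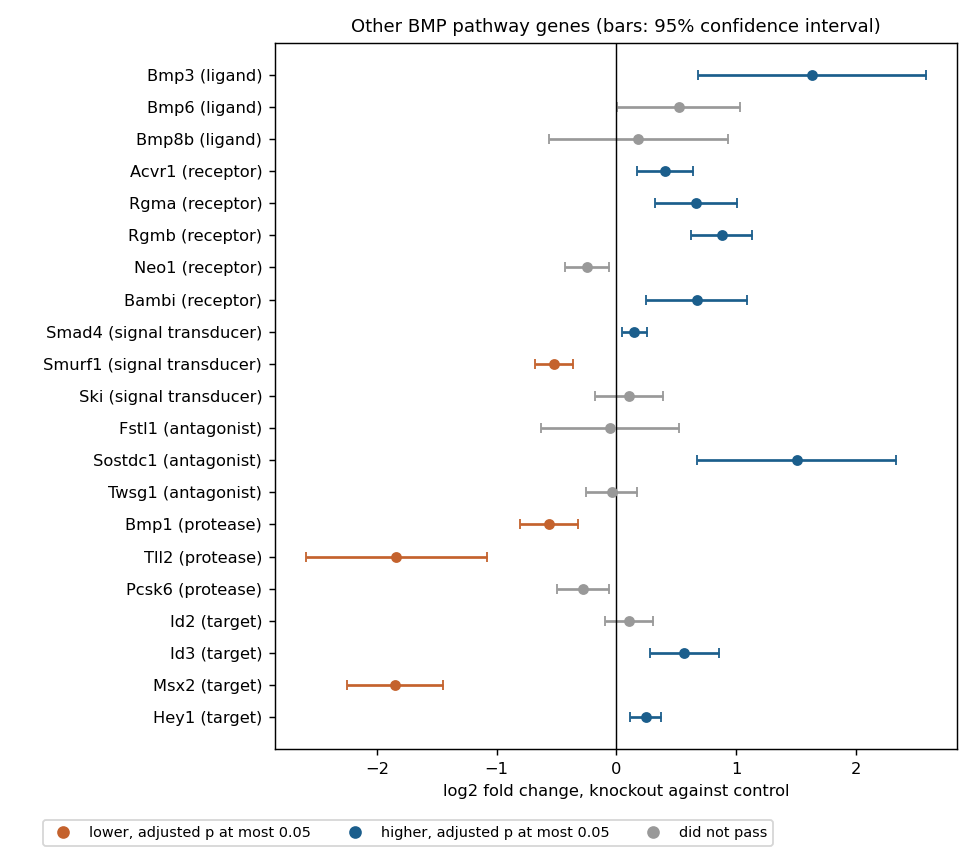
Log2 fold changes of other BMP pathway genes named in the text, which passed the test or are among those with the highest level per length in each role, with 95% intervals of the edgeR fit, in orange for genes that were lower, blue for genes that were higher and grey for those that did not pass. Among the receptors Rgmb, Rgma, Bambi and Acvr1 lie above 0, and among the targets Msx2 lies at -1.85 and Id3 at 0.56.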

How the data were processed

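The 7 libraries were made from total RNA by the authors with a NEBNext Ultra II kit and sequenced in paired ends. Per the labels and methods, the authors trimmed reads with Trimmomatic 0.36, mapped them with STAR 2.5.2b to GRCm38 and used Subread 1.5.2 to count, over exons, reads assigned to a single gene. The deposited counts are raw whole-number counts per gene; the annotation release and the strand setting are not given in the sources used here. Symbols were found for 48970 of 49315 identifiers, and all 10 members had the same start and end in GENCODE M21. Libraries held 24507471 to 59596479 counts. The labels call them biological replicates.

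Differences were tested with edgeR 4.0.16 under R 4.3.3 (filterByExpr, TMM, robust quasi-likelihood fit with the group as only term), and p-values were adjusted by Benjamini-Hochberg over 18352 genes. Standard errors and intervals follow from the F statistic. The fit was tested on simulated data, in which the changed genes had larger fold changes than Bmp4, Bmp7, Bmpr1a and Bmpr1b. Changes of the size of these members were not covered. DESeq2 1.42.0 and other settings were alternatives, of which the term for the ribosomal RNA share was added after seeing the data. The members, lists and the rule for named genes (all members, and of the other lists, genes past the threshold and the 2 highest levels per role) were chosen with earlier results of these data known. Smad1, Smad5, Smad9, Skil, Id1 and Id4 were named in addition after their values were seen. In the 3 pairs of libraries with the same replicate number, deviations from the group means correlated over genes at 0.18, 0.58 and 0.37, and those with different numbers at -0.64 to 0.32, the highest being control replicate 4 with knockout replicate 1. By the rule that each same-numbered pair exceeds 0.1, the number was taken as pairing the libraries and fitted as a block. In this block control replicate 4 has no partner and does not inform the difference. Knockout replicate 1 also exceeded 0.1 with control replicates 2 and 4 (0.12 and 0.32). The rule therefore cannot show that the libraries were paired, and the sources used here do not state a pairing. The values of 1 gene that the naming rule selects are not reported here.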

Additional observations from a re-analysis of the deposited data

Results flagged for a closer look

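In 4 of 46 genes examined, 1 control library lay far from the other 3 by Dixon's criterion, which chance alone meets in about 1 of 20 groups. Neo1 had 13550 normalized counts in control replicate 3 and 15965 to 16409 in the other controls. Id1 had 1651 in control replicate 3 and 2406 to 2451 in the other controls. Twsg1 had 3492 in control replicate 4 and 2763 to 2850 in the other controls. Tgfbr1, a TGF-β receptor, had 5679 in control replicate 3 and 2503 to 2903 in the others. Control replicate 3 was also the library with the highest microglia markers, at 1244 CPM, and their part in the value of Tgfbr1 was not tested. None of the 10 BMP signalling genes met the criterion.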

How the results depend on the processing

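Of 16 alternative settings, 15 were planned and 1, a term for the class of ribosomal RNA share, was added after seeing the data. The calls of all members held with DESeq2, its size factors, total counts, library sizes without the ribosomal RNA loci and the added term. Bmpr1a did not pass without a filter on low counts (0.21), and Bmp2 could not be tested with at least 10 counts in every library. With the replicate number as a block, Bmp7 (-0.70) and Bmpr1a (0.22) did not pass, and no other call of a member changed. Without control replicates 3 and 4 together, Bmp2 (-1.43), Bmp7 (-0.57) and Bmpr1a (0.17) did not pass, the members' lower count was 1, the further BMP genes had 4 higher, the TGF-β list had 1 lower and 0 higher (4 and 1 at an unadjusted p of 0.05 in edgeR), and all genes had 1489 lower and 1177 higher. The cause of these losses was not tested, and these fits also have fewer samples.

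Of the further BMP genes, 8 were lower with DESeq2 and 3 with at least 10 counts in every library, where 41 were tested. The TGF-β list had 2 lower with total counts, 2 lower and 1 higher without a filter, and 1 higher with the block. Signs of log2 fold changes near 0 turned with total counts for Bmpr2 (0.01), Twsg1 (0.01), Id1 (0.01) and Smad2 (0.04), with at least 10 counts for Smad2 (0.01), with the replicate block for Fstl1 (0.07), Twsg1 (0.04), Smad2 (0.04) and Id1 (0.03), and without control replicates 3 and 4 for Fstl1 (0.38), Twsg1 (0.05), Tgfbr1 (0.26) and Smad2 (0.07).

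With single libraries left out, log2 fold changes ranged from -2.11 to -1.43 for Bmp2, 0.36 to 0.52 for Bmp4, -0.89 to -0.58 for Bmp7, 0.18 to 0.24 for Bmpr1a, 0.52 to 0.72 for Bmpr1b, -0.07 to 0.02 for Bmpr2, -0.40 to -0.14 for Smad6, -1.55 to -1.46 for Smad7, -0.07 to 0.75 for Nog, 0.44 to 0.69 for Chrdl1, 0.56 to 1.30 for Id4, -0.19 to 0.15 for Fstl1, -0.08 to 0.06 for Twsg1, -0.39 to 0.21 for Tgfbr1, -0.16 to 0.05 for Id1 and -0.02 to 0.06 for Smad2. Counts ranged from 1 to 3 lower and 0 to 3 higher members, 4 to 6 lower and 2 to 8 higher further BMP genes, 0 to 4 lower and 1 to 2 higher TGF-β genes, and 1254 to 2032 lower and 850 to 1843 higher genes in all. The lowest TGF-β count was without knockout replicate 1 or 2, with 4 lower at an unadjusted p of 0.05 in edgeR, and the lowest of higher members without knockout replicate 2. Low counts limit Bmp2, with 6 raw counts in knockout replicate 1.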

Other observations

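Beside the BMP branch, 13 genes of the TGF-β and activin branch were compared. At an adjusted p of 0.05 in edgeR's test, 4 were lower and 2 higher in the Klf13 knockouts, 46.2% of the list against 23.8% of all genes tested, with a median log2 fold change of -0.30. The count was smaller with fewer libraries, as given among the alternative settings. Inhba, which encodes the activin A subunit, fell furthest, from 120, 107, 470 and 393 normalized counts in the controls to 18.1, 17.2 and 51.0 in the knockouts. It was highest in control replicates 3 and 4, where fibroblast and mural cell markers were also highest, and without these 2 libraries its log2 fold change went from -3.20 to -1.93 (adjusted p = 0.0526 in edgeR's test). The part of fibroblast and mural cell RNA in it was not tested.

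Tgfbr3, the co-receptor betaglycan, fell from 82.0 ± 3.69 (SD, n = 4 libraries) to 51.6 ± 1.83 normalized counts (SD, n = 3), Tgfb2 from 1812 ± 159 to 1430 ± 96.5 and Smad3 from 2046 ± 138 to 1660 ± 78.6. The activin type I receptors Acvr1b and Acvr1c rose by 0.38 and 1.20 log2 units, the latter at only 11.4 to 54.3 normalized counts per library. The call for Acvr1c was lost in 9 of 16 alternatives, the replicate block among them (1.18, adjusted p = 0.0969 in edgeR's test), and that for Acvr1b in 1, without control replicates 3 and 4 together. Tgfbr3 did not pass with the block either (-0.64, adjusted p = 0.0823 in edgeR's test), and the calls for Tgfbr3, Tgfb2 and Smad3 were lost in 6, 6 and 5 of 16 alternatives. Smad2, the other transducer of this branch, was at 1644 ± 107 in the controls and 1641 ± 32.3 in the knockouts, and the 95% interval of its log2 fold change was -0.16 to 0.15. Tgfbr1 had a log2 fold change of -0.14 with an interval from -0.89 to 0.62.

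Libraries also differed in the share of counts on Gm42418, Gm23935 and Lars2, where ribosomal RNA collects, which exceeded 10% in 4 libraries (control 1 and 4, knockout 1 and 3). Within these 4 and within the other 3 libraries, the log2 ratio of the group means was -1.38 and -1.66 for Smad7, -2.07 and -1.40 for Bmp2, -0.71 and -0.76 for Bmp7, 0.32 and 0.67 for Bmp4, 0.20 and 0.20 for Bmpr1a and 0.60 and 0.66 for Bmpr1b. The groups did not overlap for these 6 genes, so the sign within a class was fixed, and the class of 3 holds a single knockout library.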
